A study of Homo sapiens with 4 samples.

Results

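The protein subunits of ribonuclease P (RNase P) and of its relative RNase MRP were followed in human multiple myeloma cells in which the cytokine gene MIF was targeted by a hairpin RNA. The 10 subunits, RPP40, RPP38, RPP30, RPP25, RPP21, RPP14, POP1, POP4, POP5 and POP7, were chosen as a family by function, with the large difference of RPP40 in ARP-1 already known, so their own differences between MIF-KO and CTR-KO are given as a description. Of these 10, 6 had a named probe set among the 14884 named genes of the arrays, with 1 probe set each. The other 4 (POP1, POP4, POP5 and POP7) had no named probe set and are not analysed here. RNA was measured on 4 whole-transcript arrays: MIF-KO ARP-1, CTR-KO ARP-1, MIF-KO MM.1S and CTR-KO MM.1S, with 1 array for each. ARP-1 and MM.1S are established myeloma lines, that is, lines of malignant plasma cells. Every culture, the controls included, had received a lentivirus that carried a short hairpin RNA, directed at MIF in MIF-KO and a control hairpin in CTR-KO, and had been sorted for GFP. The name KO therefore stands for a knockdown. The titles and genotype labels were followed, although on both arrays of ARP-1 the free description gives the other hairpin. The labels name no replicate culture of any line and hairpin, so differences between arrays may hold technical spread that cannot be measured here.

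RNase P is a ribonucleoprotein that removes the leader from precursor tRNAs and so makes their mature front end. Its catalytic part is an RNA, RPPH1, which RNA polymerase III makes, and the proteins fold and hold that RNA. RNase MRP has another RNA, RMRP, shares most of the proteins, and cuts the precursor of ribosomal RNA in its first internal spacer. In the human RNase P particle, RPP40, RPP30, RPP14 and POP5 lie in one subcomplex, RPP21, RPP38 and POP4 in another, and RPP25 pairs with POP7, while POP1 is the large scaffold protein.

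Promoter sequences from RefSeq (GRCh38.p14) are described for 5 of the 6 measured subunits (RPP40, RPP38, RPP30, RPP25 and RPP14). Each holds 250 bases before and 50 bases after the start of the gene. The promoter of RPP40 (chr6:5003988-5004287, minus strand), the subunit that differed most in ARP-1, is shown with that of RPP38 (chr10:15097105-15097404, plus strand), which differed least. They are written in the direction of transcription, with matches to the GC box GGGCGG, the motif of SP1, in capitals.

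RPP40 promoter: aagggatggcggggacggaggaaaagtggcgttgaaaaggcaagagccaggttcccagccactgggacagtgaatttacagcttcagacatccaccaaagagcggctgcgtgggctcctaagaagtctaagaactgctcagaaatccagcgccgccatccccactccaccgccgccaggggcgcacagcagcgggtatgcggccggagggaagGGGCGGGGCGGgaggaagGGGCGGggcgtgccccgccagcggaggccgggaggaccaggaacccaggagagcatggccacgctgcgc

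RPP38 promoter: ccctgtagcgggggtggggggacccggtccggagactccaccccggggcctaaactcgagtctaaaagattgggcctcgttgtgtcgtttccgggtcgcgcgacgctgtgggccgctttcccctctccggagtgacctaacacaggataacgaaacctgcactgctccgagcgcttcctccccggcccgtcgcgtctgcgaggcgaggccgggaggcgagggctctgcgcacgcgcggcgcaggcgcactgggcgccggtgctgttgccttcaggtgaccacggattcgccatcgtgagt

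The GC box was searched on both strands. RPP40 held 3 matches, which began 37, 32 and 19 bases before the start, the first pair sharing a base, and RPP38 held 0. RPP14 also held 3, RPP25 held 2 and RPP30 held 1. A relation of these counts to the ARP-1 differences was not tested. Among the 5 windows 4 held a GC box, as did 45% of all 35116 promoter windows of the same length. The E-box CACGTG of the MYC family was in 0 of the 5 windows, against 7.26% of all windows. The same was true of the ETS core CCGGAAG (10.3% of all windows), the YY1 core AAGATGGC (2.89%), the ATF4 composite element TGATGNAA (3.62%) and the TATA box TATAAA (11.5%). The NRF1 core CGCATGCG, held by 2.02% of all windows, was found in RPP14 alone of the 5. The GC content of the 5 windows was 52.7% to 70.7%, where the median of all windows was 58.7%. These matches describe the letters of the windows.

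Values are probe set intensities and differences are on the log2 scale, MIF-KO minus CTR-KO unless stated. A gene was tested if its mean log2 value reached the median of all gene means (4.97), which left 7442 genes and all 6 measured subunits. RPP40 passed with a mean of 5.46, made of 7.21 (CTR-KO ARP-1), 5.37 (MIF-KO MM.1S), 4.69 (CTR-KO MM.1S) and 4.58 (MIF-KO ARP-1). The last pair of values is below 4.97, and the pass rested on the high value of CTR-KO ARP-1. The rank of RPP40 among tested genes and its limma values below depend on that pass. MIF itself had an intensity of 541 in MIF-KO ARP-1, against 1092 in CTR-KO ARP-1, and of 405 in MIF-KO MM.1S, against 1012 in CTR-KO MM.1S. Of the plasma cell markers, 7 of 9 had a named probe set. IRF4 lay between 3579 and 4380 and XBP1 between 930.4 and 1321 on the arrays, while CD27 lay between 13.5 and 16.4, near the median of all probe sets (13.1 to 13.3). Of the markers of other cell types 3 of 8 were named, and CD14, LYZ and EPCAM had intensities from 6.99 to 10.2, below that median. CTR-KO ARP-1 stood apart: the SD over tested genes of its difference from the mean of the other arrays was 0.457, against 0.347 for MIF-KO ARP-1, 0.251 for MIF-KO MM.1S and 0.323 for CTR-KO MM.1S.

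All 6 measured subunits were lower in MIF-KO ARP-1 than in CTR-KO ARP-1 (52.3% of all tested genes), while in MM.1S the MIF-KO array was above the CTR-KO array for all 6 (55.1%). RPP40 and RPP21 were far lower in MIF-KO ARP-1, and the differences of the other 4 lay between -0.65 and -0.23. This pair of opposite directions, at any size, was seen in 37.5% of all tested genes, and RPP40 alone of the 6 had it at 1.5-fold in each line, against 3.24%. In ARP-1, 3 of the 6 (RPP40, RPP21 and RPP30) were at least 1.5-fold lower in MIF-KO, against 11.9% of all tested genes, and 0 were at least 1.5-fold higher, against 10.9%. In MM.1S, RPP40 alone was at least 1.5-fold higher in MIF-KO, against 5.12% of all tested genes, and 0 were at least 1.5-fold lower, against 2.89%. The median of the 6 was -0.59 in ARP-1, where that of all tested genes was -0.03, and 0.33 in MM.1S, where that of all tested genes was 0.04. Each line has 1 array per hairpin, so these differences have no replicate check, and nothing is read from the counts since the family was picked from this contrast.

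**Figure D1:**
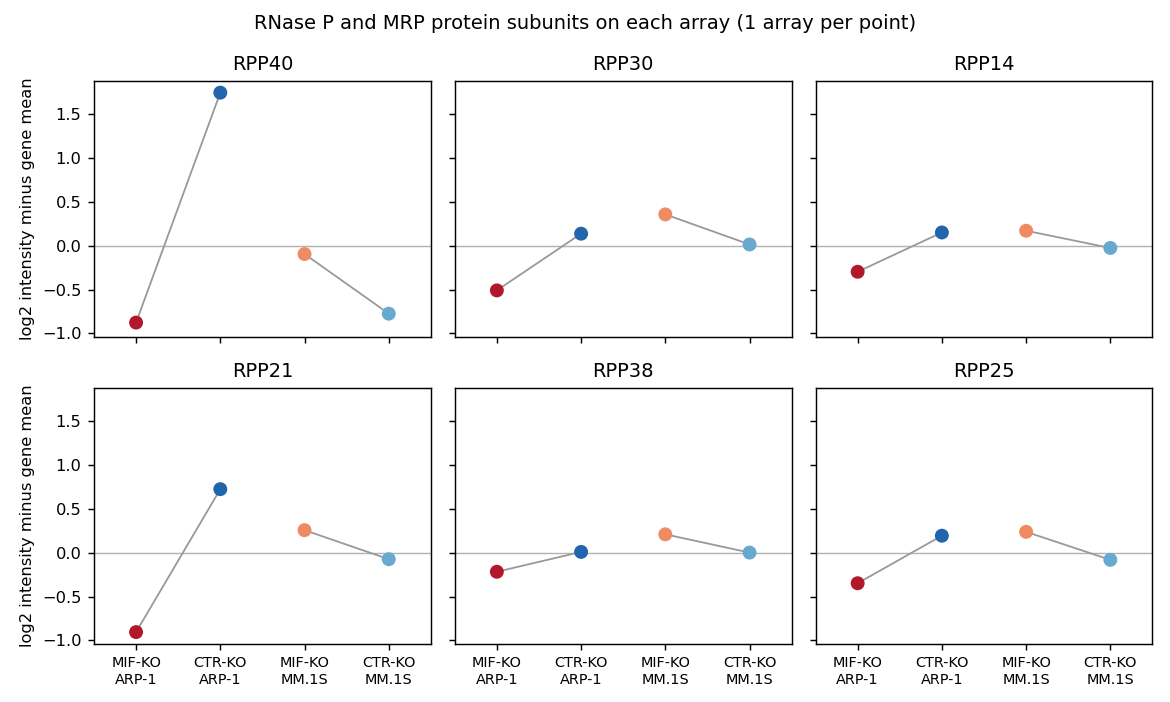
Each point is 1 array, and the vertical axis is the log2 intensity of a subunit minus its mean over the 4 arrays, with lines joining MIF-KO and CTR-KO of a line. MIF-KO ARP-1 is the lowest point in all 6 panels, and the CTR-KO ARP-1 point of RPP40 stands 1.75 above the gene's mean.

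RPP40, of the subcomplex with RPP30 and RPP14, showed the widest differences of the family. Its intensity was 24.0 in MIF-KO ARP-1, against 148 in CTR-KO ARP-1, and 41.2 in MIF-KO MM.1S, against 25.7 in CTR-KO MM.1S. A single array, CTR-KO ARP-1, was high, and the other 3 arrays lay within 0.78 of each other. MIF-KO ARP-1 was at 16.2% of CTR-KO ARP-1 (log2 difference -2.62), the rank of 4 from the most lowered of the 7442 tested genes. MIF-KO MM.1S was at 160.2% of CTR-KO MM.1S (0.68), rank 237 from the most raised. With 16 added to each intensity before log2, the differences were -2.03 (ARP-1) and 0.46 (MM.1S). RefSeq lists the antisense gene LYRM4-AS1 over RPP40, and the sources used here do not say whether the probe set tells the strands apart.

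RPP30, the subunit present as a pair in that subcomplex, and RPP14, its small partner, differed less. RPP30 had an intensity of 120.0 in MIF-KO ARP-1, against 188 in CTR-KO ARP-1 (-0.65), and 219 in MIF-KO MM.1S, against 173 in CTR-KO MM.1S (0.34). RPP14 had 153 in MIF-KO ARP-1, against 209 in CTR-KO ARP-1 (-0.45), and 211 in MIF-KO MM.1S, against 185 in CTR-KO MM.1S (0.20). For both genes MIF-KO ARP-1 was the low array and the other 3 lay close together. RefSeq places HTD2, which encodes a mitochondrial dehydratase of fatty acid synthesis, on the same locus as RPP14, so the RPP14 probe set may read both.

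RPP21 and RPP38 bind the RNA in the subcomplex with POP4. RPP21, which is regarded as a protein of RNase P and not of RNase MRP, had an intensity of 168 in MIF-KO ARP-1, against 521 in CTR-KO ARP-1 (-1.63), and 377 in MIF-KO MM.1S, against 299 in CTR-KO MM.1S (0.33). Here the ARP-1 arrays held both extremes, with the MM.1S arrays between them. MIF-KO ARP-1 was at 32.3% of CTR-KO ARP-1, rank 29 from the most lowered gene. RefSeq also lists the read-through gene TRIM39-RPP21 over RPP21, so the probe set may read both. RPP38, of the family of proteins that bind kink-turns in RNA, had 45.1 in MIF-KO ARP-1, against 52.8 in CTR-KO ARP-1 (-0.23), and 60.7 in MIF-KO MM.1S, against 52.5 in CTR-KO MM.1S (0.21). These were the smallest differences of the family in ARP-1.

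RPP25, which pairs with POP7 and grips the RNA, had an intensity of 99.6 in MIF-KO ARP-1, against 145 in CTR-KO ARP-1 (-0.54), and 149 in MIF-KO MM.1S, against 120 in CTR-KO MM.1S (0.32). At 1.46-fold in ARP-1 it lay just short of the 1.5-fold limit, while RPP30 at 1.57-fold lay just past it. These sides of the limit were not fixed: RPP25 passed it when the arrays were shifted to the same median (-0.59), and RPP30 missed it with 16 added to each intensity (-0.58). Its paralog RPP25L differed the other way in each line. RPP25L had 95.4 in MIF-KO ARP-1, against 76.9 in CTR-KO ARP-1 (0.31), and 80.6 in MIF-KO MM.1S, against 93.5 in CTR-KO MM.1S (-0.21).

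MIF-KO ARP-1 was the lowest of the 4 arrays for 6 of 6 subunits, as it was for 29.4% of all tested genes. CTR-KO ARP-1 was the highest for RPP40 and RPP21 (32.1% of all tested genes), and MIF-KO MM.1S for RPP38, RPP30, RPP25 and RPP14 (22.3% of all tested genes). Relative to each gene's mean, the 6 subunits had a median of -0.43 in MIF-KO ARP-1 against 0.17 in CTR-KO ARP-1, and of 0.22 in MIF-KO MM.1S against -0.05 in CTR-KO MM.1S. CTR-KO ARP-1 stood above the second array by 1.84 for RPP40 and by 0.47 for RPP21. For RPP40 the log2 value of MIF-KO ARP-1 (4.58) was close to that of CTR-KO MM.1S (4.69).

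**Figure D2:**
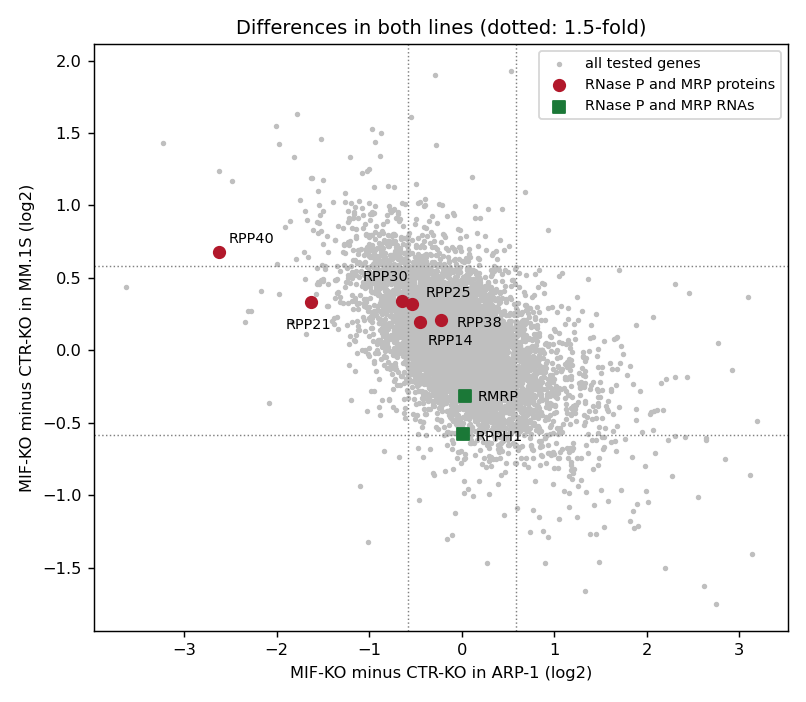
The horizontal axis is MIF-KO minus CTR-KO in ARP-1 and the vertical axis the same in MM.1S, both log2, with 1 point per tested gene and dotted lines at 1.5-fold. All 6 subunits lie in the upper left, with RPP40 at -2.62 and 0.68, and the RNAs RPPH1 and RMRP lie near 0 in ARP-1 and below 0 in MM.1S.

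Over both lines, the mean difference of RPP40 was -0.97 (SE 0.77, n = 2 lines) and that of RPP21 was -0.65 (SE 0.53). The other means lay between -0.15 (RPP30, SE 0.37) and -0.01 (RPP38, SE 0.24). The SE is limma's moderated one, in which the disagreement of the lines for a gene is drawn towards a prior variance. That variance comes from a trend over all tested genes by mean log2 value. That prior has 3.99 degrees of freedom against 1 from the gene itself. The SE therefore does not measure the spread of the 2 lines alone, which is large where the lines go opposite ways. The limma fit with terms for line and hairpin gave 0 of 7442 genes (0%) past the adjusted threshold of 0.05, with 29 at an unadjusted p below 0.05. The sign of these means rests on the ARP-1 pair: without it they equal the MM.1S differences, all above 0. With the ARP-1 arrays exchanged as their descriptions have them, limma called 401 genes (5.39%), and the mean of RPP40 was 1.65. RPP40 was among the called genes and the other measured subunits were not. Nothing is read from this, since the family was picked with the RPP40 difference in ARP-1 known. MIF, the target of the hairpin, was lower in the arrays titled MIF-KO in both lines, and under the exchange it would be higher in MIF-KO ARP-1 by 1.01. Without the CTR-KO ARP-1 array, in a fit with no term for line, the mean difference of RPP40 was 0.29.

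Between the lines, the arrays with the same hairpin differed in opposite ways. In MIF-KO cells the median MM.1S minus ARP-1 difference of the 6 subunits was 0.68, where that of all tested genes was 0.05. Of the 6, 4 were at least 1.5-fold higher in MM.1S, against 8.22% of all tested genes. These were RPP21 (1.16), RPP30 (0.87), RPP40 (0.78) and RPP25 (0.59). At that limit 0 were lower, against 4.37%. The count of 4 was not fixed, as RPP25 (0.5861) lay barely past the 1.5-fold limit (0.5850). With 16 added to each intensity the median of the 6 in MIF-KO cells was 0.52, below the limit, so fewer than 4 passed it. In CTR-KO cells the median of the 6 was -0.23, where that of all tested genes was -0.02. There RPP40 at -2.52 and RPP21 at -0.80 were the 2 at least 1.5-fold lower in MM.1S, against 11.1% of all tested genes. RPP38 was nearly level at -0.01. Over both hairpins, the MM.1S minus ARP-1 difference did not pass for any of the 6, nor for any of the 7442 genes (0%), with 87 at an unadjusted p below 0.05. For RPP40 it was -0.87 (SE 0.77, 95% interval -2.84 to 1.11, limma adjusted p = 0.99986), and for RPP30 it was 0.37 (SE 0.37, 95% interval -0.57 to 1.32, limma adjusted p = 0.99986). The family was picked with the RPP40 difference in ARP-1 known, and the same ARP-1 arrays enter this contrast. These values of the subunits are therefore a description too.

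The RNAs that these proteins hold did not share the pattern. RPPH1 had an intensity of 543 in MIF-KO ARP-1, against 537 in CTR-KO ARP-1 (0.02), and 565 in MIF-KO MM.1S, against 842 in CTR-KO MM.1S (-0.58). RMRP had 6281 in MIF-KO ARP-1, against 6146 in CTR-KO ARP-1 (0.03), and 5105 in MIF-KO MM.1S, against 6348 in CTR-KO MM.1S (-0.31). Both RNAs were thus nearly level between the ARP-1 arrays, where every measured protein subunit was lower in MIF-KO, and both were lower in MIF-KO MM.1S. Together with RPP25L, all 3 were lower in MIF-KO MM.1S and not in MIF-KO ARP-1, as were 30.1% of all tested genes. For RPPH1 and RMRP the ARP-1 side of this rests on differences near 0 (0.02 and 0.03), so their sign there was not fixed.

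The mitochondrial RNase P is made of proteins alone and shares no subunit with the nuclear enzyme. In ARP-1 and MM.1S its nuclease PRORP differed by -0.86 and 0.69, its methyltransferase subunit TRMT10C by -0.65 and 0.57, and its dehydrogenase subunit HSD17B10 by -0.58 and 0.15. All 3 were below 0 in ARP-1 and above 0 in MM.1S, as were 37.5% of all tested genes. PRORP was at 126 in MIF-KO ARP-1, against 228 in CTR-KO ARP-1, and at 178 in MIF-KO MM.1S, against 110.2 in CTR-KO MM.1S, so that CTR-KO ARP-1 was high and CTR-KO MM.1S low.

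In the lists of related genes, a percentage in parentheses after a count is the share of all tested genes. Of 47 tested tRNA modification genes (60 listed), 18 were at least 1.5-fold lower (11.9%) and 0 higher (10.9%) in MIF-KO ARP-1, and the median was -0.49. At the same limit 5 were higher (5.12%) and 0 lower (2.89%) in MM.1S, with a median of 0.27. The tRNA guanosine methyltransferase partner WDR4 differed by -1.47 (ARP-1) and 0.56 (MM.1S), the pseudouridine synthase PUS7 by -1.39 and 1.03, and YRDC, which starts the threonylcarbamoyl modification, by -1.03 and 0.52. Of 11 tested genes of tRNA end processing, splicing and export (18 listed), 2 were lower (11.9%) and 2 higher (10.9%) in MIF-KO ARP-1 at 1.5-fold, with a median of -0.08. In MM.1S 0 were higher (5.12%) and 0 lower (2.89%) at that limit, with a median of 0.24. There TSEN15, of the tRNA splicing endonuclease, differed by 1.34 and -0.07, the cyclic phosphatase ANGEL2 by 0.64 and 0.12, and the helicase DDX1 of the tRNA ligase complex by -0.61 and 0.43.

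RNA polymerase III, which transcribes tRNAs and RPPH1, had 9 tested genes of 30 listed. Of these 2 were at least 1.5-fold lower (11.9%) and 0 higher (10.9%) in MIF-KO ARP-1, and the median was -0.31. At that limit 1 was higher (5.12%) and 0 lower (2.89%) in MIF-KO MM.1S, with a median of 0.25. The subunit POLR3G differed by -2.003 and 1.55, GTF3A, the factor for the 5S gene, by -0.73 and 0.51, and the subunit POLR3E by -0.51 and 0.52.

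Genes of spacer cleavage and large-subunit rRNA processing, the process in which RNase MRP acts, had 22 tested members of 26 listed. In MIF-KO ARP-1 all 22 were lower at any size (52.3%), 11 of them at least 1.5-fold (11.9%), with a median of -0.58. In MIF-KO MM.1S 21 of 22 were higher at any size (55.1%), 6 of them at least 1.5-fold (5.12%), with a median of 0.43. The assembly factors MRTO4 and RRP1B differed by -1.55 and -1.12 (ARP-1) and by 0.81 and 0.69 (MM.1S), and PDCD11 by -1.11 and 0.69. Small nucleolar RNP proteins, some of which share the RNA-binding fold of RPP38, had 11 tested members of 13 listed, 7 at least 1.5-fold lower (11.9%) and 0 higher (10.9%) in MIF-KO ARP-1, and the median was -0.63. At that limit 2 were higher (5.12%) and 0 lower (2.89%) in MIF-KO MM.1S, with a median of 0.46. NOLC1 differed by -0.94 and 0.54, RUVBL2 by -0.93 and 0.61, and NHP2 by -0.87 and 0.55.

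The RNA exosome, a nuclease that trims RNA from the other end, had 12 tested members of 14 listed. In ARP-1 5 were at least 1.5-fold lower with MIF-KO (11.9%) and 0 higher (10.9%), with a median of -0.47. At that limit 2 were higher (5.12%) and 0 lower (2.89%) in MM.1S, with a median of 0.33. EXOSC2 differed by -0.86 and 0.82, EXOSC5 by -0.85 and 0.28, and EXOSC7 by -0.81 and 0.51. Other RNA endonucleases, with 7 tested of 17 listed, had medians of -0.03 in ARP-1 and -0.23 in MM.1S. Among them INTS9 of the Integrator differed by -0.78 and 0.35, DGCR8, the partner of Drosha, by -0.35 and 0.47, and ENDOV, which cuts at inosine, by 0.20 and -0.42. Of the 9 lists, the limma fit called 0 members over both lines, as it did over all genes.

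**Figure D3:**
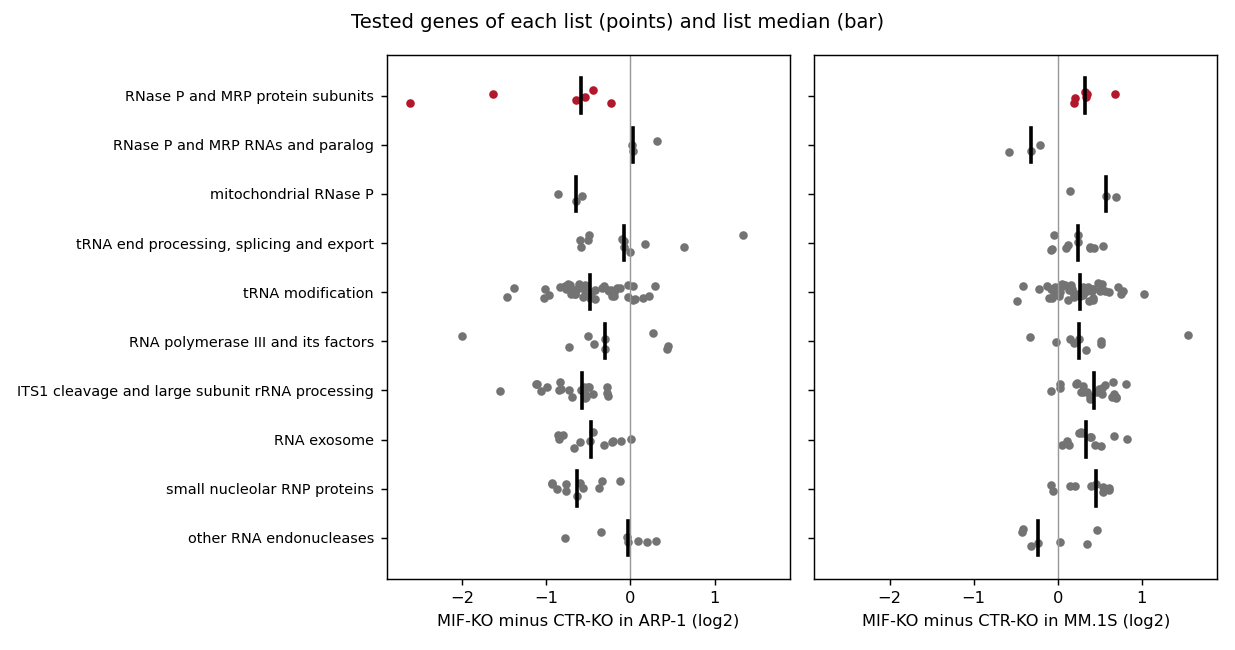
Points are tested genes of each list, bars are list medians, and the horizontal axes give MIF-KO minus CTR-KO (log2), ARP-1 on one panel and MM.1S on the other. The RNase P and MRP proteins have medians of -0.59 and 0.33, close to those of rRNA processing (-0.58 and 0.43), while the RNAs with the paralog have 0.03 and -0.31.

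By Euclidean distance over the 4 centred log2 values, the tested genes nearest to RPP40 outside the family were NAPSA (0.54), an aspartic protease, DUSP2 (0.58), a phosphatase of MAP kinases, NCR3 (0.59), a receptor of natural killer cells, PAK1IP1 (0.59), a nucleolar protein of ribosome assembly, and MYOF (0.63), a membrane repair protein. Their differences ran from -2.63 (MYOF) to -1.86 (NCR3) in ARP-1 and from 0.27 (PAK1IP1) to 1.24 (MYOF) in MM.1S. Of the family, RPP21 was the nearest to RPP40 at 1.29, and the other 4 lay from 1.81 (RPP25) to 2.04 (RPP38). With 4 arrays this likeness is a description.

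**Figure D4:**
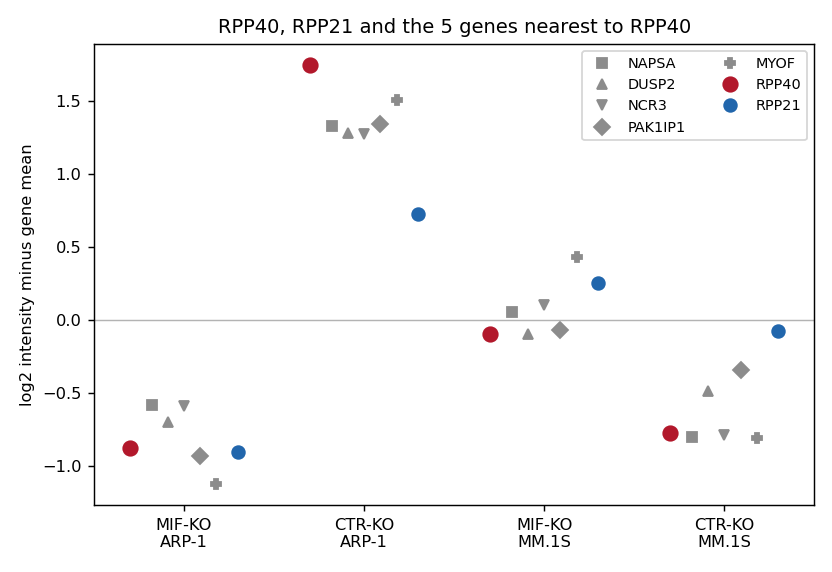
Each symbol is 1 gene on 1 array, and the vertical axis is the log2 intensity minus the gene's mean over the 4 arrays. RPP40 and its 5 nearest genes are high on CTR-KO ARP-1 (1.27 to 1.75), where RPP21 is at 0.72.

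MYC differed by 0.16 (ARP-1) and -0.10 (MM.1S). The proliferation marker MKI67, at -0.21 and 0.27, and the glycolytic enzyme GAPDH, at -0.22 and 0.22, had the directions of the subunits in each line, at about the size of RPP38 (-0.23 and 0.21). The plasma cell markers SDC1 and CD38 went the same way as the subunits, SDC1 by -1.36 (ARP-1) and 0.48 (MM.1S) and CD38 by -1.44 and 0.46. In ARP-1 the other tested markers were higher in MIF-KO: IRF4 by 0.29, XBP1 by 0.51, MZB1 by 0.45 and SLAMF7 by 0.02. In MM.1S they differed by -0.01, -0.05, -0.63 and 0.37 in that order. The part of these genes in the result was not tested. In these bulk cultures a change in the mix of cells and a change in RNA per cell cannot be told apart.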

How the data were processed

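RNA of 4 cultures was hybridised to whole-transcript arrays. The authors deposited probe set intensity values on a linear scale, with 53617 probe sets between 2.74 and 15935. Per the submitters' processing notes, RMA and limma are among the tools, with no version or role stated. No annotation release or genome build is given in the sources used here. Such values carry no depth, and it is the number of arrays that limits precision.

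The fold limit, the gene lists, the motifs and the 10 subunits were chosen with earlier results of these data known. A log2 was taken of the intensities with no pseudocount. A platform annotation gave 1 symbol for 16098 probe sets, several for 0 and none here for 37519; all 16098 matched RefSeq by Entrez ID, with 0 renamed. For the 779 genes with several probe sets the one of highest mean was kept. The limma fit (version 3.58.1, R 4.3.3) had terms for line and condition and eBayes with a trend, which leaves 1 residual degree of freedom, with Benjamini-Hochberg adjustment over 7442 genes. The lines pair the arrays by the labels; deviations of same-line arrays from the condition means correlated at r = -0.37 across genes. Alternatives were another filter, scaling, pseudocount, probe set rule and variance prior, no term for line, arrays or pairs left out, and the ARP-1 arrays exchanged. Named genes were the subunits, MIF, MYC, MKI67, markers, the 3 tested genes of each list with the largest difference in either line (the rule allows up to 4), and the 5 nearest to RPP40. GAPDH lies outside this rule and was added after its values were seen. The promoter of 1 subunit is not reported here. Figures used matplotlib 3.10.9.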

Additional observations from a re-analysis of the deposited data

Results flagged for a closer look

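Each gene here was lower in MIF-KO than in CTR-KO in one line and higher in the other. The value is the MM.1S difference minus the ARP-1 difference (log2), and with 1 array per hairpin and line the difference between the lines was not tested. For the subunits it was 3.30 for RPP40, 1.96 for RPP21, 0.99 for RPP30, 0.86 for RPP25, 0.64 for RPP14 and 0.43 for RPP38. Among genes of related processes it was 3.55 for POLR3G, 2.41 for PUS7, 2.37 for MRTO4, 1.81 for RRP1B, 1.80 for PDCD11, 1.68 for EXOSC2, 1.55 for PRORP and 1.54 for RUVBL2. Among the genes nearest to RPP40 it was 3.87 for MYOF, 2.76 for NAPSA and 2.75 for NCR3.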

How the results depend on the processing

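The exchange of the ARP-1 arrays turned every ARP-1 difference about, by its construction. The median of the 6 subunits in ARP-1 became 0.59, with RPP40 at 2.62, RPP21 at 1.63 and RPP30 at 0.65. The other named genes past 1.5-fold then stood in ARP-1 at 0.86 (PRORP), 0.65 (TRMT10C), -1.34 (TSEN15), -0.64 (ANGEL2), 0.61 (DDX1), 1.47 (WDR4), 1.39 (PUS7), 1.03 (YRDC), 2.003 (POLR3G), 0.73 (GTF3A), 1.55 (MRTO4), 1.12 (RRP1B), 1.11 (PDCD11), 0.86 (EXOSC2), 0.85 (EXOSC5), 0.81 (EXOSC7), 0.94 (NOLC1), 0.93 (RUVBL2), 0.87 (NHP2), 0.78 (INTS9), 1.91 (NAPSA), 1.97 (DUSP2), 1.86 (NCR3), 2.27 (PAK1IP1), 2.63 (MYOF), 0.91 (PRP4K), 0.70 (ECI2), 0.77 (LYRM4), 0.65 (GNL1), 0.74 (PRR3), 1.01 (MIF), 1.36 (SDC1) and 1.44 (CD38), and the list medians at 0.65 (mitochondrial RNase P) and 0.63 (small nucleolar RNPs). The means over both lines became 1.65 (RPP40), 0.98 (RPP21), 0.49 (RPP30), 0.43 (RPP25), 0.32 (RPP14) and 0.22 (RPP38), the limma count 401 against 0, and the medians of MM.1S minus ARP-1 0.032 in MIF-KO and 0.27 in CTR-KO. Without the ARP-1 pair (no test) the means were 0.68 (RPP40), 0.33 (RPP21), 0.34 (RPP30), 0.32 (RPP25), 0.20 (RPP14) and 0.21 (RPP38), and without the MM.1S pair -2.62, -1.63, -0.65, -0.54, -0.45 and -0.23 in that order.
The means in fits without one array and without a term for line were 0.29 (RPP40) and 0.026 (RPP25) when CTR-KO ARP-1 was left out, and 0.20 (RPP38), 0.28 (RPP30), 0.18 (RPP25) and 0.11 (RPP14) when MIF-KO ARP-1 was left out; these fits were chosen after seeing the data. The fit without the replicate block, that is without the term for line, also called 0 genes and 0 of the 6 subunits, so the pairing changed no call. With 16 added to each intensity LYRM4 was at -0.40 in ARP-1. Its intensities there were 13.3 (MIF-KO) and 22.6 (CTR-KO), and an added 16 by its arithmetic shrinks differences between values this low. The other filters, scalings, pseudocount, probe set rule and trend setting turned the direction of no named difference of at least 1.5-fold. Smaller differences within a line were not checked for a turn of sign. Signal over background was not given, which limits low genes such as RPP40.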

Other observations

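The nearest protein-coding genes with a named probe set on each side of RPP40 and RPP21 on chromosome 6 were looked at after the values of both were seen. Genes without a named probe set were passed over, so these need not be adjacent, and distances are not given. Beside RPP40, the differences in ARP-1 and MM.1S were -0.01 and -0.07 for PXDC1, -0.91 and -0.02 for PRP4K and -0.70 and 0.09 for ECI2 on one side. On the other side they were -0.77 and 0.13 for LYRM4, -0.07 and -0.30 for NRN1 and -0.37 and 0.07 for LY86. Beside RPP21 they were -0.01 and 0.04 for TRIM10, -0.17 and -0.07 for TRIM15 and -0.37 and -0.08 for TRIM26 on one side, and -0.65 and 0.17 for GNL1, -0.74 and -0.01 for PRR3 and -0.22 and -0.21 for MRPS18B on the other. PXDC1, LYRM4, NRN1, LY86, TRIM10 and TRIM15 did not reach the mean log2 value for testing. At such low intensities a small difference cannot tell an unchanged gene from one that is not detected. In ARP-1 the tested neighbours of RPP40, both on the same side of it, were PRP4K (-0.91) and ECI2 (-0.70), beside -2.62 for RPP40. Those of RPP21 lay between -0.74 (PRR3) and -0.22 (MRPS18B), beside -1.63 for RPP21.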
